A study of Mus musculus with 12 samples.

Results

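The cytosolic heat shock chaperones examined here are 10 genes of 15113 in the count table, namely Hspa1a, Hspa1b, Dnajb1, Hsph1, Bag3, Hspb1, Cryab, Hsp90aa1, Hspa8 and Hspa4. They were found by matching the mouse gene symbols that the authors list beside each Ensembl identifier, and all 10 matched 1 row each. Their counts were compared between C2C12 myotubes exposed for 16 h to 20 μM BAM15, a mitochondrial protonophore dissolved in DMSO, and myotubes given DMSO vehicle for the same time. C2C12 is a mouse myoblast cell line, and all 12 samples came from this single line, taken at passages 2 to 5 by the sample records and fused into myotubes in horse serum before exposure. Each condition had 6 libraries, numbered 1 to 6. Nothing in the labels says whether these came from separate cultures, so the p-values below measure the spread between these libraries, which may be technical.

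Cells meet unfolded protein in the cytosol with chaperones of several families. HSP70 proteins bind exposed hydrophobic stretches and release them in cycles of ATP hydrolysis. J-domain proteins such as the product of Dnajb1 deliver clients and start hydrolysis, HSP110 and BAG proteins exchange the nucleotide, HSP90 folds kinases and receptors, and small heat shock proteins hold unfolded clients without ATP. Part of this set is made at all times (the HSC70 gene Hspa8 and the HSP110 relative Hspa4), and part is induced when heat shock factor 1, HSF1, binds heat shock elements, inverted repeats of GAA and TTC in promoters. In muscle, Cryab, Hspb1 and Bag3 also belong to the upkeep of the sarcomere and are expressed without stress. For the comparison below, Hspa1a, Hspa1b, Dnajb1, Hsph1, Bag3, Hspb1, Cryab and Hsp90aa1 were taken as the 8 inducible genes and Hspa8 and Hspa4 as the 2 constitutive ones.

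The promoters of the inducible HSP70 pair are shown because these genes had the largest fold changes of the 10, beside those of an inducible small heat shock gene and a constitutive gene. RefSeq windows on GRCm38.p6 that reach from 250 bases before to 50 bases after a gene's start were matched for 7 of the 10 genes, and Hspa8, Cryab and Hsp90aa1 had none. The 250 bases before the start are printed in the direction of transcription, in lower case, with matches to the paired heat shock unit (GAANNTTC or TTCNNGAA, each the same on both strands) in capitals. The Hspa1a sequence lies at chr17:34972157-34972406 (minus strand), Hspa1b at chr17:34959239-34959488 (minus strand), Hspb1 at chr5:135887669-135887918 (plus strand) and Hspa4, the constitutive gene, at chr11:53300480-53300729 (minus strand).
Hspa1a: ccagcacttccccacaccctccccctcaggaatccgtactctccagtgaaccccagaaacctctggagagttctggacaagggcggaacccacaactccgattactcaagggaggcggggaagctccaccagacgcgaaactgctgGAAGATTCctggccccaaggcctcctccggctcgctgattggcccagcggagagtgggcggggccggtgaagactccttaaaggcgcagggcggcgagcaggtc
Hspa1b: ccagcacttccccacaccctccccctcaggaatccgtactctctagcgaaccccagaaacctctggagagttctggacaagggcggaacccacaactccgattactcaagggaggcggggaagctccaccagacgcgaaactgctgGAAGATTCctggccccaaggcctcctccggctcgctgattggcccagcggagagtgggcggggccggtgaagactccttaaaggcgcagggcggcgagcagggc
Hspb1: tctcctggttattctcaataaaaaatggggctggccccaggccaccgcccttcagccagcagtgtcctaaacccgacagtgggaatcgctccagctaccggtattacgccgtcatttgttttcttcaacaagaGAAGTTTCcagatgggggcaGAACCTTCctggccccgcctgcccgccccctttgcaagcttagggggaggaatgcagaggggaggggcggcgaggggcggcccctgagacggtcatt
Hspa4: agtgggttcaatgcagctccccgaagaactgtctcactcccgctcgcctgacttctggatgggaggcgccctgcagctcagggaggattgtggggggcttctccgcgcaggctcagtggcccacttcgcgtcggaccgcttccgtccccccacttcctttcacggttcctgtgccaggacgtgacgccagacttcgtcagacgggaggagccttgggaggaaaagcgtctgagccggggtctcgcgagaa

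The Hspa1a and Hspa1b windows differed at 4 of 300 bases (98.7% identical), of which 3 lay before the start, and both held the same paired unit, GAAGATTC, at positions -104 to -97. Positions count back from the base before the start, and base 1 is the start itself. The differences, with the Hspa1a base first, were C-207T, T-204C, T-2G and C26T. The Hspb1 promoter held the unit at 2 places, -117 to -110 and -97 to -90. The Hspa4 window and both windows of Dnajb1 held none, which says only that these letters are not in these windows. Bag3 held it 42 to 49 bases downstream of the start base. Hsph1 had the triple form, TTCTGGAAAGTTC, 36 to 48 bases downstream of its start base, besides a pair at -33 to -26, counted in the first of its 2 windows. Both downstream ranges are distances from the start base, not positions numbered from base 1. Of all 32851 promoter windows of this length, 15.1% held either paired unit and 0.603% held a triple one (GAANNTTCNNGAA or TTCNNGAANNTTC), which contains the pairs. These matches describe letters, not bound sites.

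Libraries were made with QuantSeq, which reads from the poly(A) end, so a gene's count does not grow with the length of its transcript. Total counts ran from 13983725 to 18751780 in the BAM15 libraries and from 15299135 to 18866728 in the vehicle libraries. Values are normalized counts (reads scaled by TMM factors to the mean library size), tested with edgeR's quasi-likelihood model over 12730 genes with Benjamini-Hochberg adjustment, and a gene was called when its adjusted p was below 0.01, its mean normalized count above 50 and its change more than 2-fold. The myotube genes Acta1, Ckm, Des, Myh3, Myh8, Tnnt3, Ttn and Myog summed to 303621 to 346467 normalized counts with vehicle and 291936 to 402056 with BAM15. None of them was past all thresholds. Acta1 and Myog were higher (log2 0.46 and 0.37, adjusted p = 3.96e-05 and 0.00361, edgeR, Benjamini-Hochberg). Ckm was lower (-0.17, adjusted p = 0.0054, edgeR, Benjamini-Hochberg), and the others had an adjusted p above 0.01. Among these, Des had the largest change of the myotube genes (-0.49, adjusted p = 0.013, edgeR, Benjamini-Hochberg). Tnnt3 had -0.30, Ttn -0.11, Myh3 0.08 and Myh8 0.16. Of the 4 genes listed for undifferentiated myoblasts, Top2a and Mki67 are genes of dividing cells in general. Both were lower past all thresholds (log2 -1.46 and -1.80). Pax7 was lower by less than 2-fold (-0.93) and Myf5 was higher past all thresholds (1.69). The 4 genes summed to 3719 to 4567 with vehicle and 1877 to 2068 with BAM15. Most of this sum was Top2a (means 3241 and 1175), so it does not measure the share of myoblasts. The part of these genes in the results below was not tested. The defining genes Ptprc (leukocytes), Pecam1 (endothelium), Epcam (epithelium) and Thy1 (fibroblasts) had no row in the table, and Pdgfra stood at 40.0 ± 7.90 (SD, n = 6) with vehicle and 31.4 ± 8.33 with BAM15. The BAM15 libraries numbered 4 to 6 stood apart from those numbered 1 to 3: 3081 genes (24.2%) differed between these sets at an adjusted p below 0.01, whereas between the vehicle sets edgeR called 0 genes (696, or 5.47%, had an unadjusted p below 0.05). The labels name no batch, and whether the 2 sets were sequenced or aligned alike is not given in the sources used here, so handling and biology cannot be told apart in any difference between them. Each change of the 10 genes is therefore also given within numbers 1 to 3 and within numbers 4 to 6. In bulk RNA, more transcript per cell and more cells making it cannot be told apart.

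BAM15 raised most of the inducible chaperone genes, and the HSP70 pair by far the most among the 10. Of the 8 inducible genes, 5 passed all thresholds and were higher (Hspa1a, Hspa1b, Dnajb1, Hsph1 and Hspb1), against 3.70% of all tested genes (3.58% were lower, 7.28% in all). Bag3 and Hsp90aa1 rose by less than 2-fold and Cryab did not pass the p-value threshold. Of the 2 constitutive genes, 0 passed all 3 thresholds with edgeR, and 1 of them, Hspa4, was past the p-value threshold alone. DESeq2 and limma-voom likewise placed 5 of the 10 genes past the thresholds. At the p-value threshold alone, 8 of the 10 genes were higher, against 22.0% of all tested genes, and in 8 every BAM15 library lay above every vehicle library, against 17.1% of all tested genes. Over the inducible genes the log2 fold change had a median of 1.44, and over the 2 constitutive genes of 0.51, beside 0.02 for every tested gene. The constitutive median is the midpoint of 0.19 for Hspa4 and 0.82 for Hspa8. The Hspa8 value did not pass (adjusted p = 0.0256, edgeR, Benjamini-Hochberg) and rests on a count that is uncertain, as described below. The 10 genes together held 0.309% to 0.335% of all reads in the vehicle libraries and 0.508% to 0.678% in the BAM15 libraries.

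**Figure D1:**
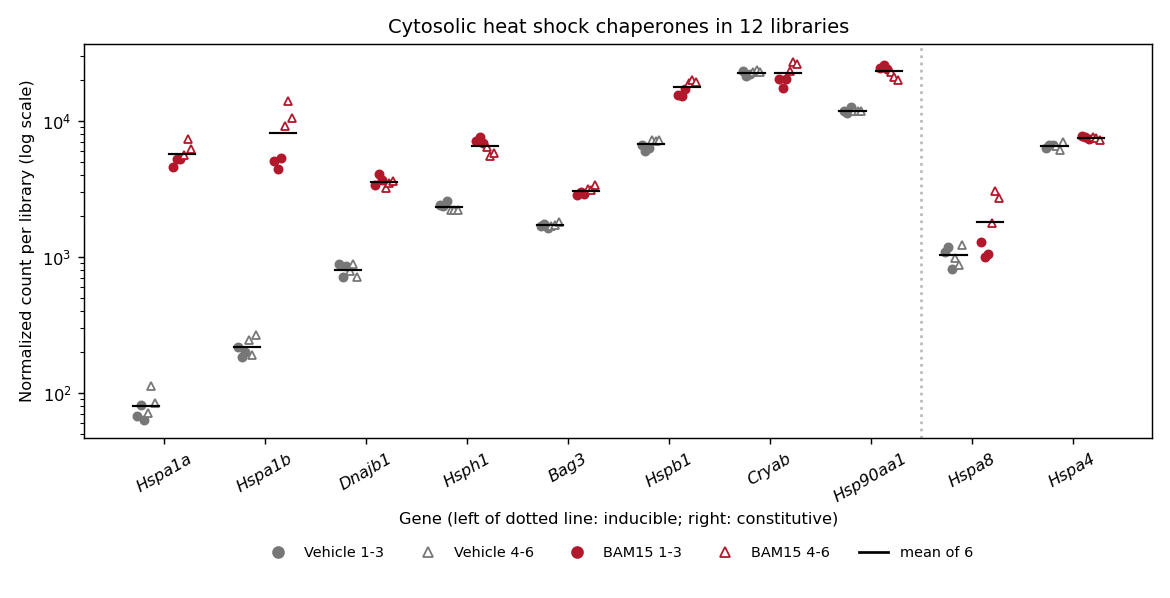
Normalized counts of the 10 genes (log axis) in each of the 6 vehicle (grey) and 6 BAM15 (red) libraries, with numbers 1 to 3 as filled circles, numbers 4 to 6 as open triangles and the mean of 6 as a bar. The conditions are separated for every gene but Cryab and Hspa8, and the BAM15 triangles of Hspa1b (9143 to 14041) and Hspa8 (1770 to 3062) sit well above the BAM15 circles.

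Hspa1a (chromosome 17, 34969190 to 34972156, GRCm38) encodes the stress-inducible form of HSP70. Its normalized count ran from 63.1 to 112 with vehicle (median 76.7) and from 4595 to 7332 after BAM15 (median 5404). The lowest BAM15 library thus lay far above the highest vehicle library, vehicle library 5. The mean rose from 80.3 ± 17.8 to 5685 ± 961 (SD, n = 6), a 70.9-fold change (log2 6.15, standard error [SE] 0.16, Benjamini-Hochberg adjusted p = 3.52e-13 by edgeR). It ranked 10 among the 12730 tested genes by fitted log2 fold change. The log2 fold change was 6.14 within numbers 1 to 3 and 6.15 within numbers 4 to 6, a difference of 0.01 (SE 0.24). The BAM15 libraries numbered 4 to 6 were higher than 1 to 3 by 0.35 on the log2 scale, which did not pass (adjusted p = 0.0154, edgeR, Benjamini-Hochberg). The vehicle libraries, with their low counts, were higher by 0.34 (adjusted p = 0.841, edgeR, Benjamini-Hochberg).

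Hspa1b (chromosome 17, 34956436 to 34959238) is the neighboring copy, whose start lies 12918 bp away, and it encodes nearly the same protein. Its normalized count ran from 183 to 266 with vehicle (median 209) and from 4384 to 14041 after BAM15 (median 7243). There was no overlap, but the BAM15 libraries fell into a lower set (4384, 5044 and 5342 in numbers 1 to 3) and a higher set (9143, 10407 and 14041 in numbers 4 to 6). Over all libraries the mean rose from 217 ± 33.0 to 8060 ± 3807, a 37.1-fold change (log2 5.21, SE 0.32, Benjamini-Hochberg adjusted p = 3.92e-08 by edgeR). The log2 fold change was 4.62 ± 0.18 (SE) within numbers 1 to 3 and 5.58 ± 0.19 within numbers 4 to 6. The difference between these effects, 0.96, had an unadjusted p of 0.00213 and an adjusted p of 0.0564 (edgeR, Benjamini-Hochberg), and so did not pass. Over all tested genes 0 differences of this kind passed with edgeR, and 26.0% had an unadjusted p below 0.05. Among the BAM15 libraries themselves, numbers 4 to 6 were higher by 1.19 on the log2 scale (adjusted p = 2.19e-04, edgeR, Benjamini-Hochberg).

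The last 400 bases of the Hspa1a transcript share no window of 50 bases with another annotated gene, and the same was true of Hspa1b. Only identical windows were counted, and how reads that match both copies were handled is not given in the sources used here. Hspa1a supplied 22.4% to 37.2% of the reads counted on the pair with vehicle. Its share was 47.7%, 54.3% and 49.4% in BAM15 libraries 1, 2 and 3 and 38.0%, 34.3% and 37.2% in libraries 4, 5 and 6. The pair took 0.00158% to 0.00211% of all reads with vehicle and 0.0531% to 0.130% after BAM15. The ratio of Hspa1a to Hspa1b counts was 2.08-fold higher after BAM15 over all libraries (log2 difference 1.06, two-sided exact permutation test, adjusted p = 0.00433 over 6 ratios), with 5 of 6 BAM15 libraries above every vehicle library. This difference was 1.52 on the log2 scale within numbers 1 to 3 and 0.59 within numbers 4 to 6.

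Dnajb1 (chromosome 8, 83608193 to 83612653) encodes HSP40, the J-domain partner of inducible HSP70. Its normalized count ran from 706 to 887 with vehicle (median 825) and from 3228 to 4070 after BAM15 (median 3534). The BAM15 libraries lay close together, with a coefficient of variation of 8.10%. The mean rose from 807 ± 82.8 to 3572 ± 289, a 4.43-fold change (log2 2.15, SE 0.08, Benjamini-Hochberg adjusted p = 7.75e-12 by edgeR), with log2 fold changes of 2.18 within numbers 1 to 3 and 2.11 within numbers 4 to 6.

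Hsph1 (chromosome 5, 149614287 to 149636376) encodes HSP105, an HSP110 protein that recharges HSP70 with ATP and holds aggregating clients. It stood at 2192 to 2557 with vehicle (median 2303) and at 5495 to 7600 after BAM15 (median 6652), without overlap. The mean rose from 2328 ± 147 to 6553 ± 798, or 2.82-fold (log2 1.49, SE 0.08, Benjamini-Hochberg adjusted p = 6.08e-10 by edgeR). Unlike Hspa1b, Hsph1 was lower in BAM15 numbers 4 to 6 than in 1 to 3 (log2 difference -0.28, adjusted p = 0.00336, edgeR, Benjamini-Hochberg), although the BAM15 effect remained above 2-fold in each set (log2 1.55 and 1.42).

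Bag3 (chromosome 7, 128523616 to 128546981) encodes a co-chaperone that joins HSP70 and small heat shock proteins and guides damaged sarcomere proteins to autophagy. Its count ran from 1628 to 1803 with vehicle (median 1701) and from 2830 to 3356 after BAM15 (median 3069). The groups were far apart for their spread, but the change stayed under 2-fold: 1706 ± 59.7 against 3057 ± 193, or 1.79-fold (log2 0.84, SE 0.05, Benjamini-Hochberg adjusted p = 3.82e-09 by edgeR). It was 0.79 within numbers 1 to 3 and 0.88 within numbers 4 to 6 on the log2 scale.

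The small heat shock proteins did not move together. Hspb1 (chromosome 5, 135887919 to 135889563), which encodes HSP25, the mouse form of HSP27, stood at 6014 to 7211 with vehicle (median 6846) and at 15147 to 19754 after BAM15 (median 18029). Its mean rose from 6737 ± 499 to 17598 ± 1959, or 2.61-fold (log2 1.39, SE 0.08, Benjamini-Hochberg adjusted p = 1.26e-09 by edgeR), with 1.33 and 1.43 within the 2 sets of numbers. Hspb1 was higher by 0.27 on the log2 scale in BAM15 numbers 4 to 6 than in 1 to 3 (adjusted p = 0.00255, edgeR, Benjamini-Hochberg). Of the 50-base windows in its last 400 bases, 41.6% are also found in other annotated genes, and the only such gene in the table, Hsp25-ps1, had 16 to 50 reads per library with vehicle and 21 to 133 after BAM15. Cryab (chromosome 9, 50751325 to 50756636), which encodes αB-crystallin, ran from 21305 to 23595 with vehicle (median 22833) and from 17517 to 27051 after BAM15 (median 21708). The groups overlapped on both sides, with 3 BAM15 libraries below every vehicle library and 2 above. The means were 22586 ± 824 and 22397 ± 3751, a log2 fold change of -0.01 (SE 0.09, Benjamini-Hochberg adjusted p = 0.924 by edgeR), and the sign turned without BAM15 library 1, 2 or 3 (0.01, 0.05 and 0.02). Within numbers 1 to 3 the log2 fold change was -0.19 (adjusted p = 0.0323), against 0.14 within numbers 4 to 6 (adjusted p = 0.105, edgeR, Benjamini-Hochberg). The difference between these effects, 0.33, did not pass (adjusted p = 0.0668, edgeR, Benjamini-Hochberg), while Cryab was higher by 0.40 on the log2 scale in BAM15 numbers 4 to 6 than in 1 to 3 (adjusted p = 5.57e-04, edgeR, Benjamini-Hochberg).

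Hsp90aa1 (chromosome 12, 110690605 to 110702728) encodes HSP90α, the inducible form of HSP90. The end of its principal transcript shares no 50-base window with another gene, while another of its 5 annotated coding ends shares 90.3%. It ran from 11465 to 12624 with vehicle (median 11803) and from 20082 to 25876 after BAM15 (median 23496). The groups were separate, and the change lay just under the 2-fold threshold: 11879 ± 390 against 23053 ± 2244, or 1.94-fold (log2 0.96, SE 0.07, Benjamini-Hochberg adjusted p = 1.04e-08 by edgeR). Within numbers 1 to 3 it was past that threshold (log2 1.05) and within numbers 4 to 6 it was not (0.85), with no passing difference between the effects (-0.20, adjusted p = 0.174, edgeR, Benjamini-Hochberg).

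**Figure D2:**
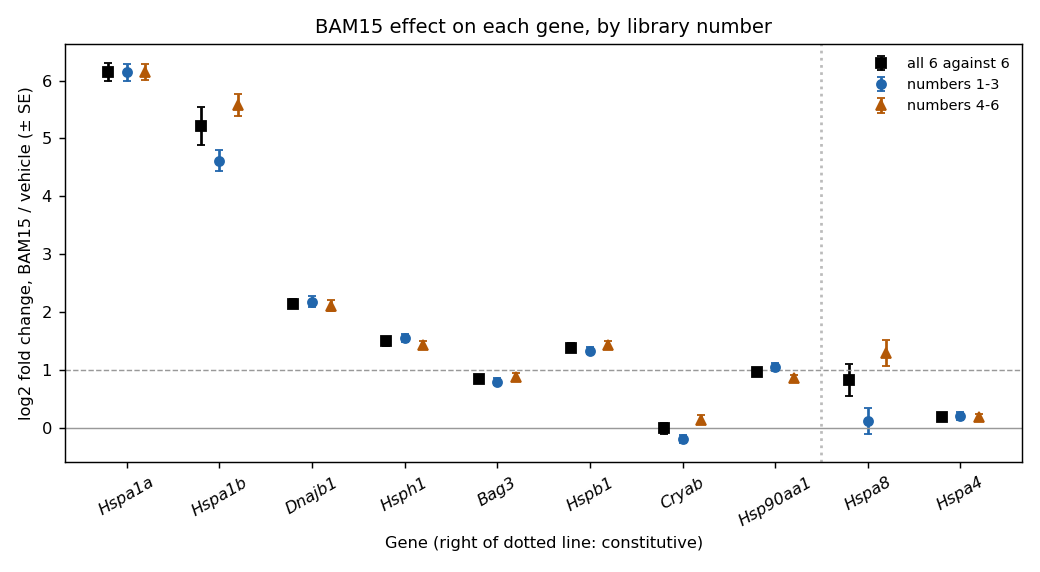
Log2 fold change of each gene (BAM15 over vehicle, bars are the standard error of the edgeR fit) over all 12 libraries (squares), within numbers 1 to 3 (circles) and within numbers 4 to 6 (triangles), with a dashed line at 2-fold. Circles and triangles are close for Hspa1a, Dnajb1 and Hspa4 and lie 0.96 apart for Hspa1b and 1.18 apart for Hspa8.

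Hspa4 (chromosome 11, 53259814 to 53300457) encodes APG-2, an HSP110 protein made without stress. It ran from 6050 to 6987 with vehicle (median 6566) and from 7197 to 7669 after BAM15 (median 7482). Every BAM15 library was higher than every vehicle library, by a small margin. The means were 6529 ± 320 and 7459 ± 167, or 1.14-fold (log2 0.19, SE 0.05, Benjamini-Hochberg adjusted p = 0.00295 by edgeR). Within numbers 1 to 3 it did not pass in the fit with all libraries (adjusted p = 0.0106) and passed when those 6 libraries were fitted alone (0.00372), and within numbers 4 to 6 it passed in neither (0.0202 and 0.0864, edgeR, Benjamini-Hochberg). Without vehicle library 1 the adjusted p was 0.0103, and with scaling by library size alone it was 0.0214 (range over the alternatives 7.41e-06 to 0.0864).

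Hspa8 (chromosome 9, 40800984 to 40810087) encodes HSC70, the constitutive HSP70 of the cytosol. Its normalized count ran from 813 to 1216 with vehicle (median 1036) and from 999 to 3062 after BAM15 (median 1531). The BAM15 libraries numbered 1 to 3 (1293, 999 and 1045) overlapped the vehicle libraries or lay just above, and those numbered 4 to 6 (1770, 3062 and 2721) lay above all of them. Over all libraries the means were 1027 ± 165 and 1815 ± 884, and the difference did not pass (log2 0.82, SE 0.28, Benjamini-Hochberg adjusted p = 0.0256 by edgeR). The log2 fold change was 0.11 within numbers 1 to 3 (adjusted p = 0.705) and 1.30 within numbers 4 to 6 (adjusted p = 7.78e-04, edgeR, Benjamini-Hochberg), and the difference between these effects did not pass (1.18, SE 0.32, adjusted p = 0.0668, edgeR, Benjamini-Hochberg). Among the BAM15 libraries themselves, Hspa8 was higher in numbers 4 to 6 by 1.18 on the log2 scale (adjusted p = 0.00279, edgeR, Benjamini-Hochberg).

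The Hspa8 count is uncertain, because of the 50-base stretches that tile its final 400 bases 87.5% also occur in 13 other annotated genes. Of these, 5 have a row in the table, and Gm15459 held nearly all of their reads. Gm15459 had 4010 ± 408 normalized counts with vehicle and 5778 ± 766 after BAM15 (log2 fold change 0.53, SE 0.09, Benjamini-Hochberg adjusted p = 1.69e-04 by edgeR), a higher count than that of Hspa8. Among the BAM15 libraries its mean was 6463 in numbers 1 to 3 and 5092 in numbers 4 to 6, the reverse of the order in Hspa8. The sum of Hspa8 and the 5 genes, a count chosen after these values were seen, was 5065 ± 332 with vehicle and 7640 ± 349 after BAM15, with means of 7629 in BAM15 numbers 1 to 3 and 7652 in numbers 4 to 6. The lowest BAM15 library, 7052, lay above the highest vehicle library, 5380. Fitted in place of Hspa8, the sum had a log2 fold change of 0.59 (SE 0.06, Benjamini-Hochberg adjusted p = 3.61e-07 by edgeR), past the p-value threshold and under 2-fold. It was 0.54 within numbers 1 to 3 and 0.65 within numbers 4 to 6, and the difference of 0.11 did not pass (adjusted p = 0.488, edgeR, Benjamini-Hochberg).

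To set inducible against constitutive genes without any scaling between libraries, the ratio of 2 counts within a library was compared for 6 pairs with a two-sided exact permutation test, adjusted over the 6 pairs by the Benjamini-Hochberg method, with a threshold of 0.05. The smallest p that 6 against 6 libraries allow is 0.00216, and 5 of the pairs reached it (adjusted p = 0.0026), so that for these no ratio overlapped between the conditions. Against Hspa8, Hspa1a rose 43.8-fold (ratio 0.0625 to 0.129 with vehicle and 2.27 to 5.20 after BAM15) and Hspa1b 21.1-fold (0.155 to 0.252 and 3.82 to 5.17). Measured against the sum of Hspa8 and the 5 genes that share its sequence, the increases were 47.0-fold for Hspa1a and 22.6-fold for Hspa1b (p = 0.00216 for each, two-sided exact permutation test). In the HSP110 pair, the ratio of Hsph1 to Hspa4 rose 2.45-fold, from 0.315 to 0.386 with vehicle up to 0.740 to 1.01 after BAM15. Of the J-domain genes, Dnajb1 rose 5.71-fold relative to Dnaja1, which encodes another cytosolic HSP40. The HSP90 pair moved least: Hsp90aa1 rose 1.46-fold relative to Hsp90ab1, which encodes the constitutive HSP90β, and its share of the reads on both genes was 10.9% to 11.4% with vehicle and 14.9% to 16.7% after BAM15.

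**Figure D3:**
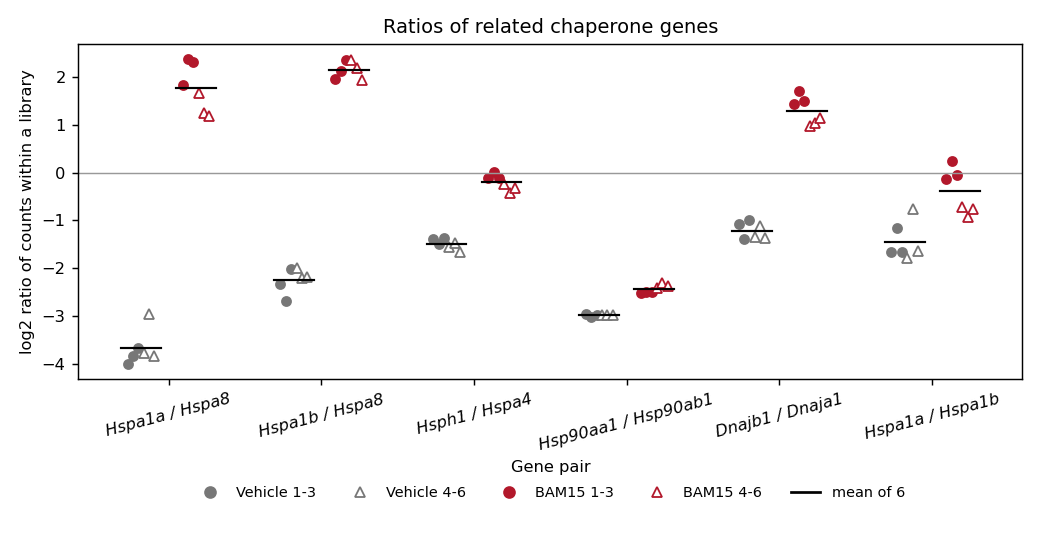
Log2 ratio of the counts of 2 genes within a library, for 6 gene pairs, in vehicle (grey) and BAM15 (red) libraries, with numbers 1 to 3 as filled circles, numbers 4 to 6 as open triangles and the mean of 6 as a bar. The conditions do not overlap in the first 5 pairs, and the Hspa1a / Hspa1b ratio has 5 of 6 BAM15 libraries above all vehicle libraries.

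Within the BAM15 libraries the ratios of the 2 sets can be set side by side, without a test. Hspa1b to Hspa8 was 3.90 to 5.11 in numbers 1 to 3 and 3.82 to 5.17 in numbers 4 to 6, and Hspa1a to Hspa8 was 3.55 to 5.20 in the first set and 2.27 to 3.16 in the second. Both rest on the uncertain Hspa8 count. Against the sum of Hspa8 and the 5 genes, Hspa1b was 0.571 to 0.719 in the first set and 1.30 to 1.76 in the second, and Hspa1a was 0.591 to 0.701 and 0.780 to 0.918, so that the order of the sets turned for Hspa1a. Dnajb1 to Dnaja1 was 2.72 to 3.28 and 1.97 to 2.21. Hsp90aa1 to Hsp90ab1 was 0.174 to 0.177 and 0.187 to 0.200, while the counts of Hsp90aa1 itself were lower in each library of the second set, by a difference that did not pass (log2 -0.22, adjusted p = 0.0106, edgeR, Benjamini-Hochberg).

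The constitutive partners outside the 10 genes differed in direction. Hsp90ab1 rose from 93878 ± 2580 to 125677 ± 18592 normalized counts (log2 0.42, Benjamini-Hochberg adjusted p = 8.66e-04 by edgeR). With each set fitted alone it was 0.57 in numbers 1 to 3 (adjusted p = 7.87e-08) and 0.24 in numbers 4 to 6, where it did not pass (adjusted p = 0.0319, edgeR, Benjamini-Hochberg). Dnaja1 fell from 1863 ± 94.7 to 1457 ± 216 (log2 -0.35, adjusted p = 0.00275, edgeR, Benjamini-Hochberg), with -0.52 in numbers 1 to 3 (adjusted p = 6.37e-07) and -0.23 in numbers 4 to 6, where it did not pass (0.0261). The difference between the effects in numbers 1 to 3 and 4 to 6 did not pass for Hsp90ab1 or Dnaja1. Over all tested genes 0 such differences passed (adjusted p below 0.01, edgeR, Benjamini-Hochberg). The last 400 bases of the longest principal transcript of Dnaja1 lie within exons of Smu1 on the opposite strand. Other ends of the Dnaja1 coding transcripts share no windows with other genes.

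The regulators of the response were also read from the table. Hsf1, which encodes the heat shock factor itself, had 268 ± 23.6 normalized counts with vehicle and 438 ± 180 after BAM15, which did not pass (log2 0.71, SE 0.22, Benjamini-Hochberg adjusted p = 0.0143 by edgeR). It passed with DESeq2 (0.00251) and with a term for the set of numbers in the edgeR fit (0.00209). Without BAM15 library 1, 2 or 3 it also passed (0.00692, 0.00519 and 0.00788). It did not pass with limma-voom (0.0315) or without BAM15 library 5 (log2 0.50, adjusted p = 0.0196 by edgeR). With each set fitted alone, Hsf1 passed in numbers 4 to 6 (log2 1.04, adjusted p = 1.18e-04, edgeR, Benjamini-Hochberg). It did not pass in numbers 1 to 3 (log2 0.21, adjusted p = 0.0898, edgeR, Benjamini-Hochberg). The call of Hsf1 thus depends on the model and on which libraries enter (range over the alternatives 1.18e-04 to 0.0898). Hsf2, a related factor, rose from 912 ± 17.0 to 1091 ± 103 (log2 0.26, adjusted p = 0.00269, edgeR, Benjamini-Hochberg), but did not pass in numbers 4 to 6 fitted alone (log2 0.14, adjusted p = 0.163). Hsbp1, whose product binds HSF1 and dampens it, fell from 6258 ± 366 to 5380 ± 273 (log2 -0.22, adjusted p = 0.00317, edgeR, Benjamini-Hochberg), but did not pass in numbers 1 to 3 fitted alone (log2 -0.16, adjusted p = 0.0238).

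Among the wider cytosolic chaperones the share of genes past all 3 thresholds was not above that of all tested genes. Of 57 other genes of the regulator, HSP70, J-domain, exchange factor, HSP90, small heat shock protein, TRiC, prefoldin and HSF1-responsive lists, 56 were tested, 2 were past all thresholds and higher (3.70% of all tested genes were), and 0 were lower past them with edgeR (3.58% of all tested genes were), with a median log2 fold change of 0.09. At the p-value threshold alone 17 of the 56 were higher and 6 lower. Of all tested genes 42.3% passed it, 22.0% higher and 20.3% lower. The share of higher genes was thus larger in these lists and that of lower genes smaller, which was not tested. The 2 genes past all thresholds were Dnajb4 and Hspa1l. Dnajb4, which encodes a J-domain protein close to that of Dnajb1, rose from 741 ± 109 to 1604 ± 145 (log2 1.11, SE 0.09, Benjamini-Hochberg adjusted p = 1.18e-07 by edgeR). Hspa1l, the HSP70 gene next to Hspa1a and best known from testis, rose from 49.9 ± 11.7 to 103 ± 16.7 (log2 1.04, SE 0.17, adjusted p = 9.94e-05, edgeR, Benjamini-Hochberg), and its last 400 bases share no windows with other genes. The number of genes past all thresholds was 1 rather than 2 without BAM15 library 1, without vehicle library 3 and with scaling by library size alone.

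A list of 6 other HSF1-responsive genes, which includes Dnajb4 and Hspa4l, had the highest median of the cytosolic lists outside the 10 genes. Of the 6, 5 were higher at the p-value threshold, against 22.0% of all tested genes, and the list's median log2 fold change was 0.80. Zfand2a, which encodes the proteasome adapter AIRAP, rose by 0.90 on the log2 scale (adjusted p = 2.30e-04), and Ier5, whose product aids HSF1, by 0.83 (Benjamini-Hochberg adjusted p = 2.88e-08 by edgeR). Ubb, which encodes ubiquitin, rose by 0.65 (adjusted p = 5.43e-07, edgeR, Benjamini-Hochberg). Hspa4l, a further HSP110 gene, had -0.07 and did not pass (adjusted p = 0.325, edgeR, Benjamini-Hochberg).

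Among the 8 J-domain genes, Dnaja4 rose by 0.89 on the log2 scale (adjusted p = 3.63e-09, edgeR, Benjamini-Hochberg), besides Dnajb4, and 4 of the 8 did not pass the p-value threshold. For this and the counts that follow, 22.0% of all tested genes were higher at that threshold and 20.3% lower. Of the 13 HSP90 and cochaperone genes, 3 were higher, 2 lower and 8 did not pass it. The largest change there was that of Cacybp, which rose by 0.56 on the log2 scale (adjusted p = 8.46e-05, edgeR, Benjamini-Hochberg). Unc45b, which encodes a chaperone of muscle myosin, fell from 1918 ± 65.1 to 1372 ± 121 (log2 -0.48, adjusted p = 6.93e-06, edgeR, Benjamini-Hochberg). Of the 14 genes of the TRiC chaperonin and prefoldin, which fold actin and tubulin, 4 were higher and 2 lower, with Cct4 the largest change (0.44, adjusted p = 0.00779, edgeR, Benjamini-Hochberg). In the 5 other small heat shock genes, Hspb8, whose product works with BAG3, rose by 0.30 (adjusted p = 0.00828, edgeR, Benjamini-Hochberg) and the others did not pass. None of the 5 exchange factor and BAG genes passed with edgeR, and the largest value there was that of Bag4 (-0.18, adjusted p = 0.0897, edgeR, Benjamini-Hochberg).

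**Figure D4:**
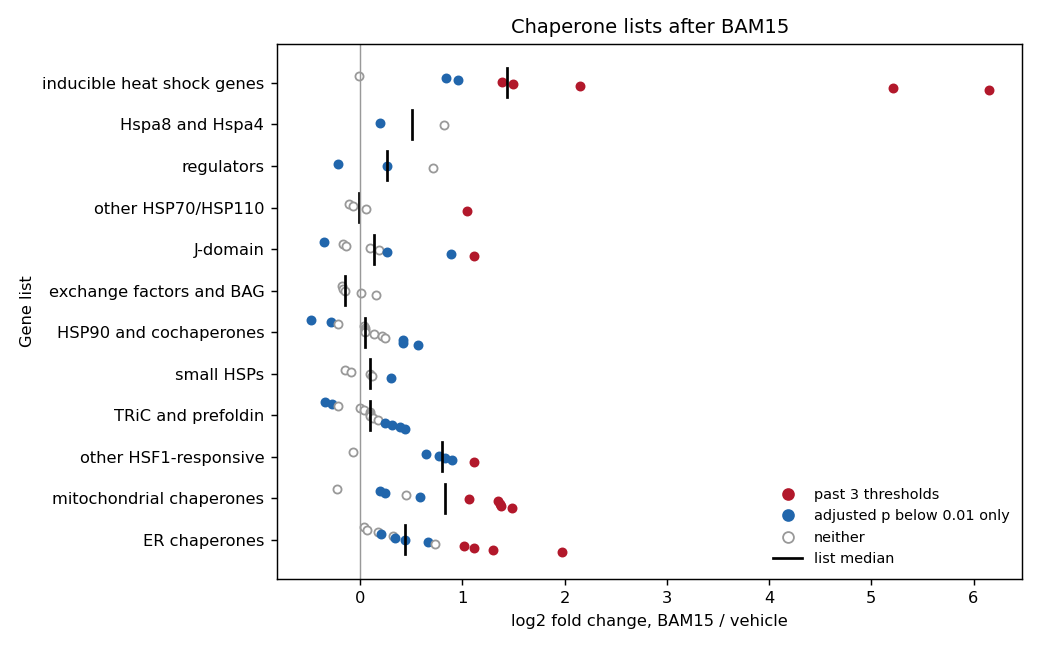
Log2 fold change (BAM15 over vehicle) of each tested gene in 12 chaperone lists, with red for genes past all 3 thresholds, blue for genes past the adjusted p threshold only, open grey for neither and a black bar at the list median. The inducible list has the highest median, 1.44, and the mitochondrial list the next, 0.83.

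The mitochondria and the endoplasmic reticulum have HSP70 and HSP90 proteins of their own, and these genes were read from the same fit without a test against the cytosolic set. The mitochondrial HSP70 gene Hspa9 had a log2 fold change of 1.35 (SE 0.06, adjusted p = 8.17e-11) and the mitochondrial HSP90 gene Trap1 of 0.19 (SE 0.05, Benjamini-Hochberg adjusted p = 0.0057 by edgeR). The endoplasmic reticulum HSP70 gene Hspa5 had 1.97 (SE 0.06, adjusted p = 2.38e-12) and the HSP90 gene Hsp90b1 had 0.66 (SE 0.09, adjusted p = 1.62e-05, edgeR, Benjamini-Hochberg). Against 3.70% of all tested genes, 5 of 10 mitochondrial chaperone and protease genes were past all thresholds and higher (Lonp1, Hspd1, Dnaja3, Hspa9 and Hspe1, log2 1.48, 1.38, 1.37, 1.35 and 1.07). Of 13 endoplasmic reticulum genes, 4 were (Hspa5, Dnajb9, Sdf2l1 and Hyou1, log2 1.97, 1.30, 1.11 and 1.02).

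Profiles nearest to a given gene were found as the smallest root mean square difference of log2 values relative to the vehicle mean over the 12 libraries. Nearest to Hspa1a were Trib3 (0.46), Avil (0.48), Tpsab1 (0.60), Lin7a (0.66) and Cdsn (0.73), whose log2 fold changes were 5.65, 6.37, 5.56, 6.33 and 6.93. Their vehicle means were 126, 12.5, 11.9, 1.7 and 15.7 normalized counts, so all but the Trib3 value rest on few vehicle reads. Nearest to Hspa8 were Mbd2 (0.15), Slc41a1 (0.15), Manf (0.17), Gm15050 (0.17) and Gata2 (0.18), with log2 fold changes between 0.72 and 0.87. Of these only Gm15050 passed the p-value threshold (adjusted p = 0.00519), and the rest had 0.0159 to 0.0315 (edgeR, Benjamini-Hochberg). This profile is that of the Hspa8 count alone, which is uncertain and was split between the sets as its sum with the 5 genes was not. Manf encodes an endoplasmic reticulum stress protein, and Trib3 a pseudokinase induced by the integrated stress response.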

How the data were processed

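RNA of 12 C2C12 samples (6 BAM15, 6 vehicle) was measured by 3′ QuantSeq with forward reads of 50 bp by the sample records (the study's methods give another length). The authors aligned reads with BlueBee software and deposited counts, whole reads per Ensembl gene without normalization. The submitters' processing notes name GRCm38 (mm10) and DESeq2 1.22.2; the aligner and counting strand are not given in the sources used here. The authors also deposited normalized signal, in which every library's reads are scaled by its own size factor (0.836 to 1.07), and only its gene symbols were used. The tables hold 11 further columns of samples outside this series, which were not used. Total counts per library limit the precision as given above.

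Counts were analysed with edgeR 4.0.16 in R 4.3.3: filterByExpr, TMM scaling and a robust quasi-likelihood fit with condition as the only term, with p-values adjusted by the Benjamini-Hochberg method over 12730 genes. The standard error is the log2 fold change divided by the square root of F. Sets of library numbers came from a fit with 4 groups. Ratios used counts plus 0.5 and scipy 1.17.1. Positions and shared 50-base windows came from GENCODE M21 on GRCm38, promoters from RefSeq on GRCm38.p6. Alternatives used DESeq2 1.42.0, limma 3.58.1, other scalings, filters, blocks and left-out libraries. The fit was tested on simulated data. Figures were drawn with matplotlib 3.10.9. The 10 genes and the lists were chosen with earlier results of these data known. Named are the 10 genes, their ratio partners, the regulators, in each list the genes past all thresholds and the one with the largest change, and the 5 genes nearest in profile to Hspa1a and to Hspa8. Further list genes (Zfand2a, Ier5, Ubb, Dnaja4, Hspa4l, Hsp90b1, Trap1, Unc45b) and Gm15459 were named after their values were seen. No 2 libraries of the same condition agreed within sampling noise.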

Additional observations from a re-analysis of the deposited data

Results flagged for a closer look

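Each of the 10 genes and 6 ratios was searched in each condition for a library far from the other 5, and 3 of 32 groups had one, where chance gives about 1 in 20. Hsp90aa1 stood at 12624 normalized counts in vehicle library 3, above the other vehicle libraries. The log2 ratio of Hspa1a to Hspa8 was -2.96 in vehicle library 5, above the other 5. The log2 ratio of Hsp90aa1 to Hsp90ab1 was -3.03 in vehicle library 2, below the other 5. In each of these 3 cases the BAM15 libraries all lay above the library in question.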

How the results depend on the processing

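Hspa1a, Hspa1b, Dnajb1, Hsph1, Bag3, Hspb1 and Hsp90aa1 kept their direction and stayed past the p-value threshold under every alternative scaling, filter, test, block and left-out library. The number of the 10 genes past all thresholds was 5 in the main analysis, 8 with the adjusted p-value alone and 3 with a log2 fold change above 2. It was 6 in numbers 1 to 3 fitted alone, with Hsp90aa1, and 6 in numbers 4 to 6, with Hspa8 (log2 1.29, adjusted p = 0.00407 by edgeR). It was 5 (lowest and highest) in the 12 fits that each left out 1 library. The log2 fold change of Cryab reversed to 0.13 within numbers 4 to 6 and ran from -0.0729 to 0.0502 when 1 library was left out. The number of other cytosolic chaperone genes past all thresholds and higher was 1 with scaling by library size only and 1 within numbers 1 to 3 (with 1 lower gene there), and 1 to 2 with 1 library left out (1 without BAM15 library 1 or vehicle library 3). The number of endoplasmic reticulum genes, 4 in the main analysis, was 2 within numbers 1 to 3 and 5 within numbers 4 to 6. It was 3 with upper quartile scaling or library size only, and 3 to 4 with 1 library left out. The number of mitochondrial genes, 5 in the main analysis, was 4 within numbers 1 to 3. The log2 ratio of Hspa1a to Hspa8 changed by 6.02 within numbers 1 to 3 and by 4.89 within numbers 4 to 6, where 3 against 3 libraries allow no p below 0.1; the cause was not tested.

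Correlations of deviations between libraries of the same number ran from -0.07 to 0.28, so the numbers were not taken to pair the samples. With a replicate block for the number, 5 of the 10 genes were again past all thresholds, Hspa4 was no longer past the p-value threshold (0.0109), and the Hspa1a to Hspa1b ratio gave 1.06 with an adjusted p of 0.0625 in an exact sign-flip test, whose smallest p is 0.0312. The effect of BAM15 differed between numbers 1 to 3 and 4 to 6 for 0 genes with edgeR at an adjusted p below 0.01, and for 3313 at an unadjusted p below 0.05. Among the 10 genes the vehicle values of Hspa1a rest on the fewest reads, 63.1 to 112 normalized counts, and Hspa1l rests on 28.7 to 59.9.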
